A study of Mus musculus with 4 samples.

Results

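Intercalated cells are the acid-base cells of the connecting tubule and the collecting duct. In all, 8 genes of these cells, chosen by name from the 32285 genes of the files, were followed here: the proton pump subunits Atp6v1b1, Atp6v0d2, Atp6v1g3 and Atp6v0a4, the anion exchangers Slc4a1 (AE1), Slc26a4 (pendrin) and Slc4a9 (AE4), and the transcription factor Foxi1. All 8 genes were present in the files and all 8 passed the low-count filter in every fit. The data were 4 Visium sections of the left kidney of wild-type C57BL/6J male mice aged 7 to 8 weeks, an assay that counts RNA molecules (unique molecular identifiers, UMIs) per gene in a grid of spots, each covering several cells. Normal sections 1 and 2 came from normal control kidneys, for which the labels name no operation. Ischemic sections 1 and 2 came from kidneys taken 24 h after 30 min of bilateral clamping of the renal pedicles, so that both kidneys of the mouse were injured. All 4 sections lay on 1 slide, with the conditions in different capture areas, and the labels do not say which mouse each section came from.

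As background, type A intercalated cells secrete acid with a vacuolar H+-ATPase (V-ATPase) in the apical membrane and pass bicarbonate to the blood through Slc4a1. Type B cells secrete bicarbonate through Slc26a4 and carry Slc4a9 on the basolateral side. Foxi1 is the forkhead factor that the cells need for their identity and for transcription of several pump and exchanger genes. The pump is built of a cytosolic V1 part, which splits ATP, and a membrane V0 part, which passes the protons. Atp6v1b1 (the B1 subunit) and Atp6v1g3 belong to V1, and Atp6v0a4 and Atp6v0d2 to V0. Each has a paralog used in the lysosomes and endosomes of most cells, Atp6v1b2, Atp6v1g1, Atp6v0a1 and Atp6v0d1. Slc4a1 is also the band 3 protein of the red cell membrane, Atp6v0a4 is also found in the proximal tubule, and Atp6v0d2 also occurs in osteoclasts and macrophages.

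The genes lie on 6 chromosomes in the mm10 build: Atp6v1g3 at chr1:138273738-138289462, Atp6v0d2 at chr4:19876841-19922605, Atp6v0a4 at chr6:38048483-38124586, Atp6v1b1 at chr6:83742990-83758855, Slc4a1 at chr11:102348824-102366203, Foxi1 at chr11:34204338-34208089, Slc26a4 at chr12:31519827-31559969 and Slc4a9 at chr18:36528147-36556273. The 8 genes are annotated as protein coding.

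The 4 sections held 25957128 to 44528078 UMIs over 2401 to 2613 tissue spots in the ischemic and 2616 to 2682 in the normal sections, and normal section 1 was the deepest. The injury markers Havcr1 and Lcn2 were higher in the ischemic sections by 9.64 and 8.78 on the log2 scale. Spots were assigned to cortex, outer stripe, inner stripe, inner medulla or pelvis from marker genes. These markers changed with ischemia themselves. Over whole sections 6 of 6 cortex, 5 of 5 outer stripe and 4 of 4 inner stripe marker genes were lower. Of the 5 inner medulla marker genes, 2 were higher and 1 was lower. Whether a zone holds the same tissue in both conditions was not tested. The cortex took 45.0% and 43.3% of normal and 39.7% and 36.5% of ischemic spots, and the inner medulla took 5.12% and 8.35% against 12.2% and 11.5%. A whole-section level therefore mixes the zones in different proportions. Levels are given in CPM, the UMI counts of a gene scaled to the TMM-normalized total of its section or zone, and changes as log2 of ischemic over normal. A spot holds many cells, so fewer intercalated cells and less RNA per intercalated cell cannot be told apart in any value below.

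**Figure D1:**
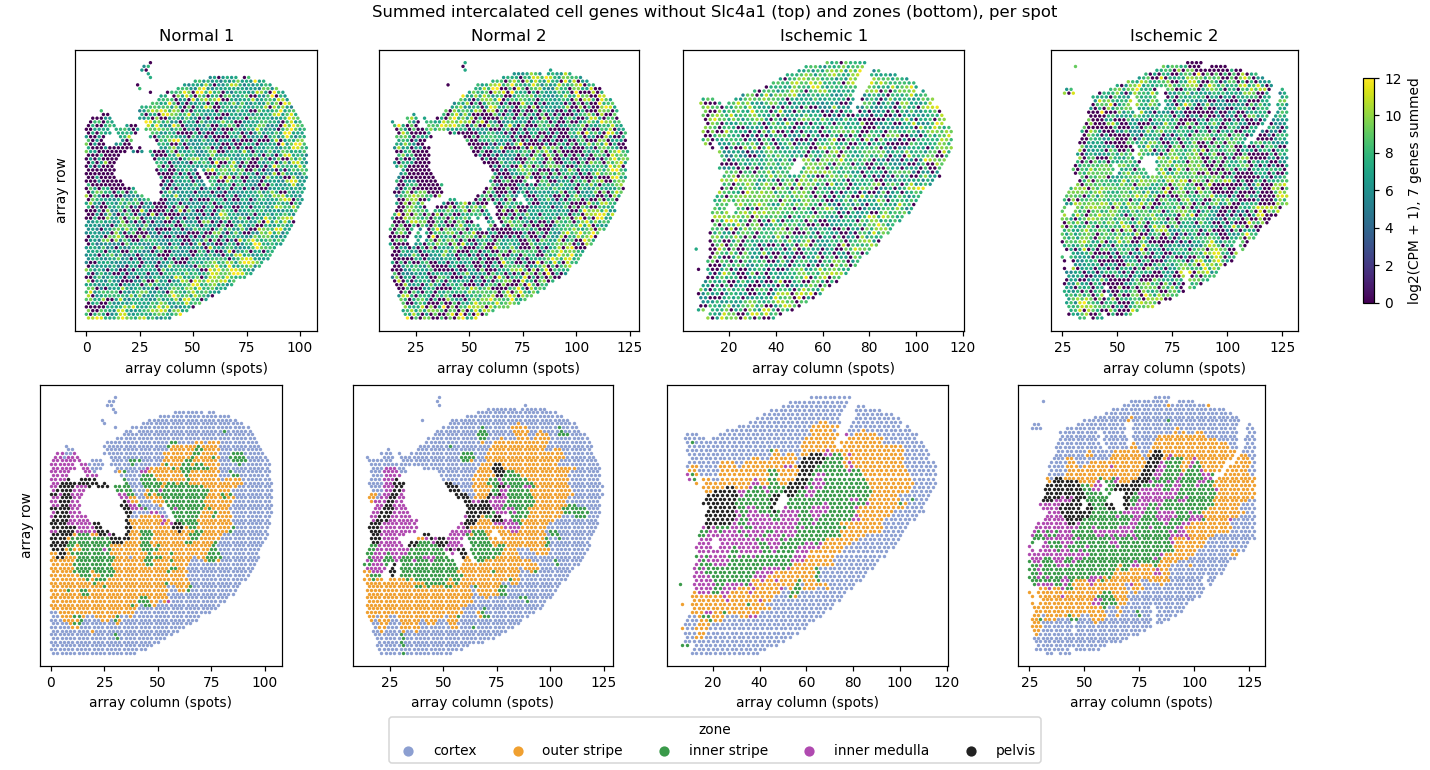
Top, summed level of the 7 genes other than Slc4a1 in each spot (log2 of CPM plus 1, scaled by the UMIs of the spot) over the tissue of the 4 sections, placed by array row and column. Atp6v1g3, the gene of the highest level, weighs most in the sum. Bottom, the zone of each spot; in the normal sections the brightest spots lie mostly in the outer rim, the cortex zone, and in the ischemic sections bright spots are also frequent in the medulla.

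In normal kidney, 7 of the 8 genes had their highest zone mean in the cortex. Slc26a4, the apical chloride-bicarbonate exchanger of type B cells, was the most cortical: the cortex zone held 90.4% and 86.6% of its UMIs in normal sections 1 and 2. Its level was 47.0 and 55.9 CPM in the cortex, against 5.15 and 7.29 for outer stripe spots and 3.45 and 9.69 for inner stripe spots. Slc4a9, the basolateral exchanger of the same cell type, held 82.0% and 81.1% of its UMIs in the cortex, and Atp6v1g3 80.9% and 78.6%. Against the cortex, 7 of the 8 genes were lower in the outer stripe, where 7.54% of all 14174 genes tested were lower and 7.51% higher. In the inner stripe 6 of the 8 were lower and 1 was higher, against 9.86% and 11.0% of all genes. In the inner medulla 7 were lower and 1 was higher, against 18.0% and 18.5%. That count rests on the zone scoring. With each spot scored alone, 3 of the 8 passed the test, beside 3779 of all 14174 genes. Atp6v1b1 (0.47), Atp6v0d2 (0.58), Atp6v1g3 (0.23), Slc26a4 (0.076) and Foxi1 (0.42) then stood above the cortex. Atp6v1b1 passed the test in that opposite direction. The 7 genes lower in the outer stripe had log2 differences from the cortex of -0.63 (Atp6v0a4) to -3.06 (Slc26a4).

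Slc4a1, the basolateral chloride-bicarbonate exchanger of type A cells, had a different distribution. Its level was 17.8 CPM in the cortex of both normal sections, against 15.1 and 13.8 for outer stripe spots and 46.0 and 62.0 for inner stripe spots. The 2 inner stripe values lay above all cortex and outer stripe values. The inner stripe exceeded the cortex by 1.58 ± 0.29 (SE, log2; adjusted p = 0.000575), while the outer stripe difference of -0.29 ± 0.30 did not pass the test (adjusted p = 0.617). In the inner medulla the sections disagreed, with 9.43 CPM from 10 counts in normal section 1 and 52.9 CPM from 89 counts in normal section 2. The difference from the cortex there was 0.96 ± 0.37 (adjusted p = 0.0491), and it was -0.92 without normal section 2.

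Over whole sections, Slc4a1, Atp6v1b1, Slc26a4 and Foxi1 fell after ischemia and Atp6v0a4 and Slc4a9 did not change past the threshold. Atp6v1g3 was lower and Atp6v0d2 higher by less than 0.5 on the log2 scale. Of all 15305 genes tested, 31.0% were higher and 29.7% lower at an adjusted p of 0.05, so a call by itself was common. Of the 8 genes, 1 was higher, 5 were lower and 2 did not pass the test. In the same 6 genes the ischemic sections did not overlap with the normal ones, as was so for 43.0% (higher) and 39.2% (lower) of all genes. The median log2 change of all 8 genes was -0.58 beside 0.04 over all genes tested.

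**Figure D2:**
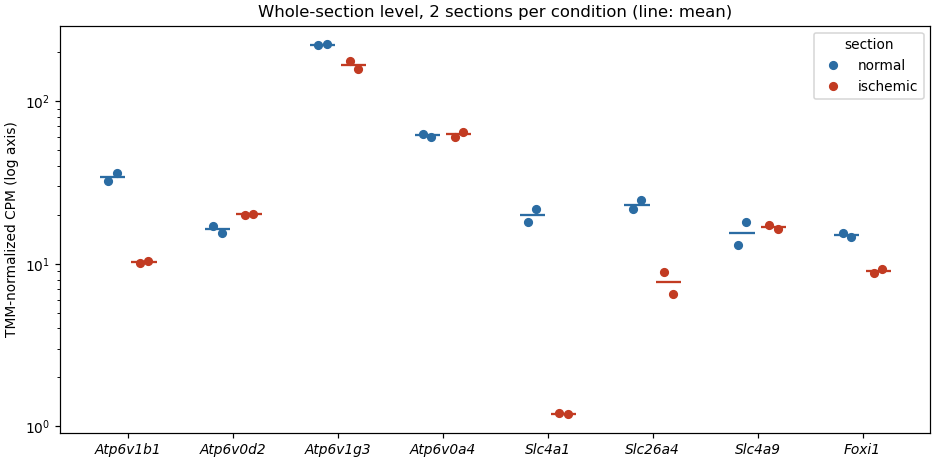
Whole-section level of the 8 genes in TMM-normalized CPM (log axis), with 1 point per section and a line at the mean of the 2 sections of a condition. For Slc4a1, Atp6v1b1, Slc26a4 and Foxi1 both ischemic points lie well below both normal points, and for Atp6v0a4 and Slc4a9 the conditions overlap.

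The exchanger Slc4a1 had the largest change of the 8. It stood at 18.0 and 21.7 CPM in the normal sections (665 and 600 counts) but at 1.21 and 1.19 CPM in the ischemic sections (41 and 34 counts). The conditions were far apart, with a mean of 19.9 ± 2.63 (SD, n = 2) against 1.20 ± 0.015 (SD, n = 2), a 16.5-fold lower level. The log2 change was -4.05 ± 0.17 (SE; adjusted p = 2.18e-07).

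Red cells are a further source of Slc4a1 RNA, and erythroid RNA fell as well. The 4 hemoglobin genes summed to 10710 and 9046 CPM in normal but to 698 and 1462 CPM in ischemic tissue. Of the 10 erythroid genes listed, 9 were in the files and 7 were tested, of which 5 were lower, with Alas2, the first enzyme of erythroid heme synthesis, at -3.57 and Hba-a1 at -3.00. In the normal sections, the 5% of spots richest in hemoglobin held 66.0% to 75.1% of the counts of each hemoglobin gene but 4.21% and 4.00% of the Slc4a1 counts. Scaled by the UMIs of the spots without TMM, Slc4a1 stood at 18.5 CPM in those spots and 14.8 in all others of normal section 1, and at 15.1 and 22.1 in normal section 2. Across the spots of the normal sections, Slc4a1 correlated with the summed CPM of the other 7 genes at r = 0.295 and 0.242. Atp6v1g3 weighs most in that sum. With the hemoglobins Slc4a1 correlated at r = 0.065 and 0.00085. These correlations describe spots of 1 library each, which share depth, and carry no test. In the ischemic sections the hemoglobin-rich spots held 7.32% and 11.8% of the Slc4a1 counts (3 and 4 counts), at 2.00 against 1.29 CPM in all other spots of section 1 and 2.45 against 1.23 in section 2. The part of red cell RNA in the fall of Slc4a1 was not tested.

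Slc26a4 and Slc4a9, both of type B cells, did not move alike. Slc26a4 stood at 21.8 and 24.5 CPM in normal but at 8.89 and 6.53 in ischemic tissue, and both ischemic values were below both normal ones. The log2 change was -1.58 ± 0.15 (SE; adjusted p = 2.24e-05). Slc4a9 stood at 13.1 and 18.0 CPM in the normal and at 17.4 and 16.4 in the ischemic sections, and the conditions overlapped. Its change of 0.13 ± 0.15 did not pass the test (adjusted p = 0.473); it was 0.34 (adjusted p = 0.0021) without normal section 2 and -0.08 without normal section 1. The ratio of Slc26a4 to Slc4a9 counts was 1.66 and 1.36 in the normal and 0.511 and 0.399 in the ischemic sections, a mean log2 difference of -1.74 with no overlap. Within the cortex zone alone the same difference was -0.82, again with no overlap. With 2 sections against 2, an exact two-sided permutation test of such a ratio cannot give a p below 0.333.

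Foxi1 had 572 and 405 counts in normal but 296 and 267 in ischemic tissue. This corresponded to 15.5 and 14.7 CPM against 8.72 and 9.32, with no overlap. The log2 change was -0.75 ± 0.11 (SE; adjusted p = 0.000387), and it missed the threshold without TMM scaling (-0.47, adjusted p = 0.0545). That scaling by library size alone moves the median change of all genes from 0.04 to 0.31.

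The 4 pump subunits separated. Atp6v1b1, the B1 subunit whose loss causes distal renal tubular acidosis, stood at 32.4 and 36.1 CPM in the normal and at 10.1 and 10.4 in the ischemic sections. The 2 ischemic values were below both normal ones, and the log2 change was -1.74 ± 0.10 (SE; adjusted p = 1.47e-06). Atp6v1g3, a subunit of the peripheral stalk, stood at 221 and 224 CPM against 178 and 157, and its log2 change of -0.41 ± 0.12 passed the test (adjusted p = 0.0164). The call was lost with library size scaling (-0.14, adjusted p = 0.301) and without ischemic section 1 or 2 (adjusted p = 0.153 and 0.373).

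The 2 membrane subunits were not lower over whole sections. Atp6v0a4, whose loss likewise causes distal renal tubular acidosis, stood at 63.1 and 60.4 CPM in the normal and at 60.4 and 64.7 in the ischemic sections. The conditions overlapped, and the log2 change of 0.02 ± 0.10 did not pass the test (adjusted p = 0.885). Atp6v0d2 stood at 17.1 and 15.5 CPM against 20.02 and 20.35, a log2 change of 0.31 ± 0.099 (adjusted p = 0.0241). That call did not hold with DESeq2 (adjusted p = 0.195), with RLE factors (adjusted p = 0.0503) or without ischemic section 1 or 2 (adjusted p = 0.129 and 0.163). Macrophage genes, as a further source of Atp6v0d2, were 1 higher and 4 lower of 9 tested, the higher one being Cd68 (2.25), and their summed level was 287 and 304 CPM in the normal and 229 and 223 in the ischemic sections. Their part in the Atp6v0d2 values was not tested.

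The paralogs of the 4 subunits did not follow them one by one. Atp6v1b2 changed by -0.18 ± 0.13 (adjusted p = 0.242), and the ratio of Atp6v1b1 to Atp6v1b2 counts differed between conditions by -1.56 on the log2 scale. Atp6v0a1 rose by 0.80 ± 0.090 (adjusted p = 7.06e-05) beside the flat Atp6v0a4, so that their ratio differed by -0.78. Atp6v0d1 fell by 0.31 (adjusted p = 0.0241) where Atp6v0d2 was higher, and their ratio differed by 0.62. In the cortex zone the ratio of Atp6v0d2 to Atp6v0d1 differed by -0.46, in the opposite direction. Atp6v1g1 changed by -0.25 ± 0.14 (adjusted p = 0.152), and over whole sections the ratio of Atp6v1g3 to Atp6v1g1 overlapped between conditions. In the cortex zone that ratio differed by -0.48 with no overlap. The cortex ratios of Atp6v1b1 to Atp6v1b2 (-1.45) and of Atp6v0a4 to Atp6v0a1 (-0.55) did not overlap either.

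**Figure D3:**
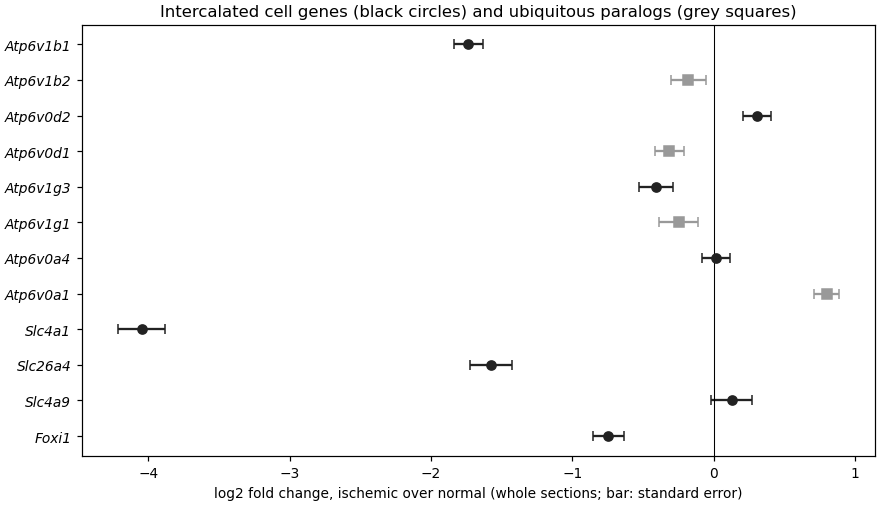
Log2 fold change of ischemic over normal whole sections with its standard error, for the 8 intercalated cell genes (black circles) and the 4 ubiquitous paralogs of the pump subunits (grey squares). Slc4a1 lies farthest to the left at -4.05, Atp6v1b1 lies at -1.74 beside its paralog Atp6v1b2 at -0.18, and Atp6v0a4 lies at 0.02 beside Atp6v0a1 at 0.80.

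The upstream sequences of Atp6v1b1 and Slc26a4 are shown because, of the members' promoters at hand, they hold the forkhead letters searched for. RefSeq promoter sequence of GRCm38.p6 (250 bases before to 50 after the start) was matched for 5 of them, Atp6v1b1, Atp6v1g3, Atp6v0a4, Slc26a4 and Foxi1. Forkhead factors such as Foxi1 bind sequences with a core like TGTTTA or TATTTA, and these letters, searched on both strands and chosen with the sequences in view, occurred in 13.4% and 13.7% of all 32851 promoters and in 24.1% as either one. Of the 5 matched, Atp6v1b1 held the first and Slc26a4 the second. The match is in capitals and begins 98 and 64 bases before the start; the Slc26a4 match lies on the opposite strand and reads TAAATA. The matches are a description of letters and not sites of binding, and nothing is read from their absence in the other 3, of which Atp6v1g3 and Foxi1 were also lower over whole sections and in the cortex.
Atp6v1b1, chr6:83742767-83742966, plus strand: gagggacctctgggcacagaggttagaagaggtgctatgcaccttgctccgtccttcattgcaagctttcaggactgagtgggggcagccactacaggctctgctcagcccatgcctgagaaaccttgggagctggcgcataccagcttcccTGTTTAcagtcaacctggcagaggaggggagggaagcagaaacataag
Slc26a4, chr12:31560035-31560234, minus strand: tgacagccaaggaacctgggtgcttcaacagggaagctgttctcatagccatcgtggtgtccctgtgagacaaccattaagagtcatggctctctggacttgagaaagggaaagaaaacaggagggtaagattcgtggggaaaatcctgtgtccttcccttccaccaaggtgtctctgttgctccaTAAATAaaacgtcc

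The rest of the pump was mostly lower or unchanged by the test. The counts of lists below stand beside 29.7% lower and 31.0% higher of all genes over whole sections. Of the 10 other V1 genes listed, 0 were higher and 5 lower, led by Atp6v1c2 (-2.03), the C subunit form of intercalated cells, and Atp6v1e1 (-1.07). Of the 10 other V0 and accessory genes, 1 was higher (Atp6v0a1) and 6 were lower, led by Atp6v0e2 (-1.27). The medians of these lists were -0.44 and -0.36. Of 15 other intercalated cell genes, 1 was higher and 10 were lower, with a median of -0.74. Among the lower ones were the receptor kinase Insrr (-2.41), the transcription factor Hmx2 (-2.17), the ammonia transporter Rhcg (-2.17) and the oxoglutarate receptor Oxgr1 (-1.95). The higher one was the carbonic anhydrase Car2 (0.68), which is also expressed in other tubule cells. Of 9 principal cell genes, the neighbouring cell type of the collecting duct, 0 were higher and 3 were lower, the latter near the 29.7% of all genes. Their median was -0.37, and among the lower ones were Hsd11b2 (-1.10) and the vasopressin receptor Avpr2 (-1.03).

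Other nephron segments moved too. Lower were 4 of 6 genes of the distal convoluted and connecting tubule (median -1.85), 5 of 5 of the thick ascending limb (-1.48) and 6 of 6 of the proximal tubule (-2.26). No gene of these lists was higher, where 29.7% of all genes were lower and 31.0% higher. The medians are descriptions beside the members' -0.58.

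Within the cortex, where intercalated cells of both types lie, 6 of the 8 genes were lower after ischemia and 0 were higher, with 19.9% of all 14174 genes lower and 20.2% higher. Slc4a1 fell from 17.8 CPM in both normal sections to 1.54 and 1.62 (-3.48 ± 0.42, adjusted p = 2.52e-06). Atp6v1b1 fell from 48.3 and 57.4 CPM to 17.3 and 19.2 (-1.53 ± 0.17, adjusted p = 8.35e-07). Slc26a4 fell from 47.0 and 55.9 CPM to 23.5 and 19.98 (-1.23 ± 0.20, adjusted p = 8.37e-05). For these 3 genes each ischemic cortex lay below both normal ones by more than the spread of either pair.

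Foxi1 in the cortex was 27.5 and 27.7 CPM in the normal and 13.6 and 14.6 in the ischemic sections, a change of -0.97 ± 0.15 (adjusted p = 3.91e-05). Atp6v0d2 was 29.9 and 31.6 CPM against 21.6 and 17.9 (-0.63 ± 0.17, adjusted p = 0.00565), so that the subunit that was higher over whole sections was lower in the cortex. Atp6v1g3 was 427 and 464 CPM against 284 and 232 (-0.79 ± 0.31, adjusted p = 0.047). The calls of Atp6v0d2 and Atp6v1g3 were lost without ischemic section 1 (adjusted p = 0.0618 and 0.198) or 2 (0.197 and 0.384), and with library size scaling (0.126 and 0.214), while the direction stayed; that of Atp6v1g3 was also lost with DESeq2 (0.0569).

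The 2 remaining genes did not pass the test in the cortex. Slc4a9 was 25.6 and 38.4 CPM in the normal and 24.1 and 22.6 in the ischemic cortex, with a change of -0.44 ± 0.18 (adjusted p = 0.0642). Normal section 2 stood well above the other 3 sections, and the change was -0.80 (adjusted p = 8.21e-06) without normal section 1 and -0.13 (adjusted p = 0.443) without normal section 2. It passed the test in 6 of 12 alternatives. Atp6v0a4 was 92.3 and 92.9 CPM against 110 and 116, a change of 0.29 ± 0.15 (adjusted p = 0.135) although the 2 ischemic values lay above the normal ones. It passed the test with library size scaling (0.51, adjusted p = 0.0288) and without normal section 2 (0.29, adjusted p = 0.0292).

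**Figure D4:**
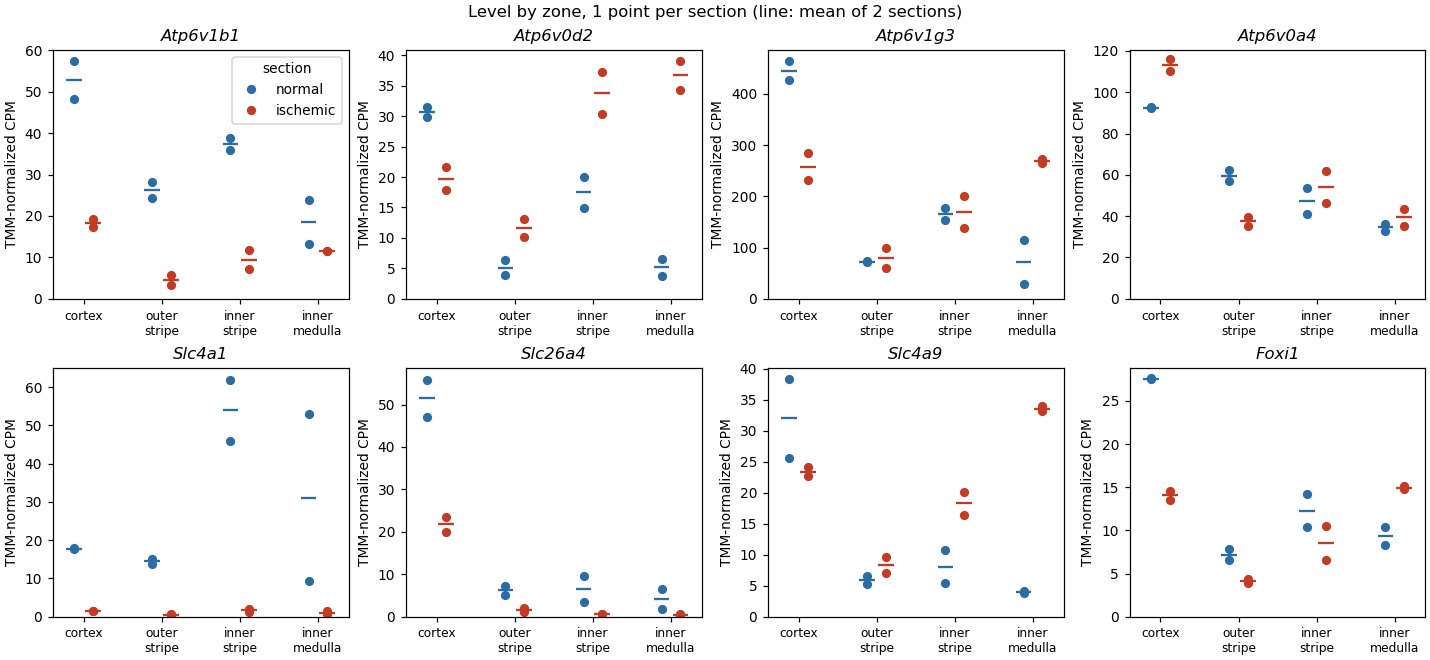
Level of each of the 8 genes by zone in TMM-normalized CPM on a linear axis from 0, with 1 point per section and a line at the mean of 2 sections. In the cortex the ischemic points lie below the normal ones for all genes but Atp6v0a4, whereas Atp6v0d2, Atp6v1g3 and Slc4a9 stand higher in the ischemic than in the normal inner medulla.

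In the outer stripe, the zone of the straight proximal tubule, 5 genes were lower and 1 was higher, against 29.5% and 27.4% of all genes. Atp6v1b1 went from 24.4 and 28.1 CPM to 5.77 and 3.28 (-2.50 ± 0.22, adjusted p = 1.72e-08). Its fall there exceeded its fall in the cortex by 0.97 (adjusted p of the difference 0.0338), a test that 11.7% of all genes passed in this zone. Atp6v0a4 went from 56.8 and 62.5 CPM to 35.5 and 39.5 (-0.67 ± 0.16, adjusted p = 0.00142), and its difference from the cortex was -0.96 (adjusted p = 0.00786). Atp6v0d2 was the gene that rose, from 6.31 and 3.96 CPM to 13.1 and 10.1 (1.15 ± 0.23, adjusted p = 0.000304). The change of Atp6v0d2 differed from that in the cortex by 1.77 (adjusted p = 0.000588). Slc4a1 was at 7 and 3 counts in the ischemic sections after 156 and 108 in the normal ones, Slc26a4 was lower by -1.91 and Foxi1 by -0.81 on the log2 scale. The differences from the cortex of Atp6v1b1, Atp6v0d2 and Atp6v0a4 did not pass without ischemic section 1 or without ischemic section 2. With single sections left out they ran from -1.53 to -0.57, from 1.47 to 2.19 and from -1.06 to -0.90, in that order. That of Atp6v1b1 did not pass with DESeq2 (adjusted p = 0.0671), without hemoglobin-rich spots (0.0793) or with each spot scored alone (0.0741). With library size scaling the differences of Atp6v1b1 (0.275) and Atp6v0a4 (0.0642) did not pass. The call of the Atp6v0a4 change was lost with library size scaling (adjusted p = 0.201) and without ischemic section 1 (0.0676), and that of Foxi1 with library size scaling (0.217) and without ischemic section 2 (0.0541). With zones scored from each spot alone, the calls of Foxi1 (adjusted p = 0.21) and Slc26a4 (0.153) were also lost.

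In the inner stripe, the zone of the thick ascending limb and of outer medullary collecting duct, 3 genes were lower and 2 higher, against 25.9% and 22.2% of all genes. Slc4a1, which was highest in this zone in normal kidney, went from 46.0 and 62.0 CPM (213 and 179 counts) to 2.05 and 1.33 CPM (11 and 7 counts), a change of -4.96 ± 0.47 (adjusted p = 6.39e-08). Atp6v1b1 went from 36.0 and 38.8 CPM to 7.09 and 11.8 (-1.98 ± 0.23, adjusted p = 7.56e-07). Slc26a4 had 16 and 28 counts in the normal and 4 and 3 in the ischemic inner stripe (adjusted p = 0.000375). Slc4a9 rose from 5.39 and 10.7 CPM to 16.4 and 20.2 (1.27 ± 0.29, adjusted p = 0.00115), and Atp6v0d2 from 20.1 and 14.9 CPM to 30.4 and 37.3 (0.92 ± 0.21, adjusted p = 0.00111; 0.78, adjusted p = 0.0518, without ischemic section 2). Both differed from their change in the cortex, by 1.71 (adjusted p = 0.00212) and 1.55 (adjusted p = 0.000577), where 11.1% of all genes passed that test. Without ischemic section 2 neither difference passed (adjusted p = 0.154 and 0.13), and without ischemic section 1 that of Slc4a9 did not (0.0698). Atp6v0a4, Atp6v1g3 and Foxi1 did not pass the test, with changes of 0.18, 0.03 and -0.49.

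Marker levels in the inner medulla zone differed between the 2 conditions. Whether the tissue in the zone or its expression changed was not tested. Aqp2, the water channel of principal cells, stood there at 2902 and 2504 CPM in the normal and at 431 and 896 in the ischemic sections. Slc14a2, the urea transporter of the inner medullary collecting duct and thin limb, stood at 103 and 319 against 619 and 549 CPM. Umod of the thick ascending limb stood at 2363 and 3133 against 4319 and 4117 CPM. Unlike Slc14a2 and Umod, and like Aqp2, most genes of the thick ascending limb and inner medulla lists were lower. Of 5 thick ascending limb genes, 1 was higher and 3 were lower in the ischemic zone (median -1.81). Of the 5 inner medulla marker genes, 1 was higher and 4 were lower (median -1.49). In the normal sections the zone lay beside the hilar cavity, while in the ischemic sections its spots were interspersed with those of the inner stripe, as the map of zones shows. The part of this difference in the values of the next paragraph was not tested.

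With that limit, 3 genes were higher and 2 lower in the ischemic inner medulla, against 13.9% and 21.2% of all genes. Atp6v0d2 went from 3.77 and 6.53 CPM (4 and 11 counts) to 34.3 and 39.1 (2.74 ± 0.35, adjusted p = 7.44e-06). Slc4a9 went from 3.77 and 4.16 CPM (4 and 7 counts) to 34.0 and 33.1 (3.06 ± 0.42, adjusted p = 1.50e-05). Atp6v1g3 went from 29.2 and 114 CPM to 272 and 264 (1.84 ± 0.35, adjusted p = 0.000398), and its normal sections stood far apart from each other. When each spot was scored without its neighbours, these 3 changes were -0.18 (adjusted p = 0.561), -0.0023 (0.996) and -0.77 (0.00524), so the rises rest on the neighbourhood scoring of zones. The difference from the change in the cortex passed the test for these 3 genes and Foxi1, against 7.25% of all genes; without ischemic section 1 or 2 it was lost for Atp6v1g3 (adjusted p = 0.0979 and 0.126) and Foxi1 (0.117 and 0.0727), and with each spot scored alone it was lost for all 4, including Atp6v0d2 (0.45, adjusted p = 0.482) and Slc4a9 (0.49, adjusted p = 0.382). Slc4a1 had 10 and 89 counts in the normal and 2 and 4 in the ischemic inner medulla (adjusted p = 1.59e-05), and was lower under every alternative. Slc26a4 had 7 and 3 against 2 and 1 counts, and its adjusted p of 0.0468 did not hold without any single section but normal 2.

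Across zones, the cortex share of the UMIs of Atp6v1b1, Atp6v0d2, Atp6v1g3, Slc4a9 and Foxi1 was smaller in both ischemic than in both normal sections, and that of the other 3 genes was not. Over all genes, the cortex held 20817761 of 44528078 and 12156530 of 27657481 UMIs in normal sections 1 and 2. In ischemic sections 1 and 2 it held 12569875 of 31053530 and 9284716 of 25957128, again a smaller share. The share of Atp6v1b1 fell less than that of all UMIs, from 62.4% and 60.4% to 59.0% and 55.5%. For Atp6v0d2 the cortex held 73.5% and 77.3% of the UMIs in the normal and 37.2% and 26.6% in the ischemic sections. For Slc4a9 it held 82.0% and 81.1% against 47.9% and 41.8%, and for Atp6v1g3 80.9% and 78.6% against 55.1% and 44.6%. Slc26a4 stayed cortical, with 91.4% and 92.5% of its remaining UMIs in the cortex of the ischemic sections. The shares move with the number of spots per zone, given above, as well as with the level.

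The share of spots with at least 1 UMI was taken after each spot was thinned to 2000 UMIs. It follows the level of a gene as well as its spread over spots, and it is scaled without TMM. Without TMM the median log2 change of all genes over whole sections was 0.31. Slc4a1 was seen in 3.87% of the normal and 0.349% of the ischemic spots (means of 2 sections), Atp6v1b1 in 5.97% and 2.37%, Slc26a4 in 3.57% and 1.57%, and Foxi1 in 3.04% and 1.89%. Atp6v0d2 was seen in 2.69% and 4.30%. Slc4a9 was seen in 2.46% and 4.07%. Its normal sections stood apart, at 1.67% and 3.24%, against 3.63% and 4.51% in the ischemic ones. The ratio of single ischemic to normal sections ran from 1.12 to 2.69 for Slc4a9. Without thinning the same 2 genes stood at 11.1% and 18.8%, and at 11.3% and 15.4%. Atp6v1g3 was seen in 18.7% and 24.2% of the thinned spots while its CPM was lower, and no order is read from that share. Atp6v0a4 stood at 9.85% and 12.8% of thinned but at 46.0% and 45.6% of unthinned spots.

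Within sections, the 8 genes shared spots to differing degrees. In the normal sections the highest mean correlation across spots (log2 of CPM plus 1) was between Slc4a9 and Slc26a4 (r = 0.474), followed by Slc26a4 with Atp6v1g3 (0.449). In the ischemic sections these pairs stood at 0.217 and 0.245, and the highest pair was Slc4a9 with Atp6v1g3 (0.327). Atp6v0a4 was the least tied to the others, at r = 0.168 to 0.190 with the sum of the other members in the normal and 0.067 to 0.076 in the ischemic sections, and it had the highest correlation with spot depth (0.247 to 0.300 in the normal sections). Slc4a1 stood at r = 0.242 to 0.295 with the sum of the other members in the normal sections. In the ischemic sections, where it had 41 and 34 counts, it stood at 0.077 to 0.088. These are descriptions over spots that share a library and its depth, and lower counts alone lower such a correlation.

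Among 10347 other genes, those whose spot pattern was most like the sum of the 7 genes without Slc4a1 are named as a description. Atp6v1g3 weighs most in that sum of CPM. Its whole-section means were 223 CPM in normal and 168 in ischemic sections, beside 61.8 and 62.6 for Atp6v0a4, the next highest. The 10 with the highest mean r over the 4 sections were Tmem213 (0.347), Rhcg (0.337), Scnn1b (0.335), Hsd11b2 (0.333), Spink8 (0.312), Car15 (0.310), Defb1 (0.306), Klk1 (0.296), Rhbg (0.288) and Atp6v1c2 (0.288). The median over all genes compared was 0.0355 and the 99th percentile 0.160. Of the 10, 8 stayed among the first 10 when all spots were used and 7 with Spearman's rho. Rhcg and Rhbg carry ammonia, Scnn1b is a subunit of the epithelial sodium channel and Hsd11b2 protects the mineralocorticoid receptor of principal cells from cortisol-like steroids. A spot is wider than a tubule, so principal and intercalated cells of 1 duct fall together.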

How the data were processed

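In all, 4 Visium sections of left kidney were used, 2 normal and 2 ischemic. Other sections of the study were not analysed here. Per the file headers and the submitters' processing notes, Space Ranger 1.3.0 and mm10 were used. What the authors deposited are raw counts, the UMIs of each gene in each spot, with no normalization. Depth was 44528078 and 27657481 UMIs in the normal and 31053530 and 25957128 in the ischemic sections, over 10312 tissue spots. Sections shared 1833 to 2137 spot barcodes pairwise, since barcodes mark array positions. Coordinates came from the GENCODE M21 annotation of GRCm38, which matched 32158 of 32285 identifiers.

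Counts were summed per section, or per section and zone of at least 20 spots, and tested in R 4.3.3 by the quasi-likelihood test of edgeR 4.0.16 after filterByExpr and TMM scaling, at a Benjamini-Hochberg threshold of 0.05 over all genes. Over whole sections the section was the unit. The zone model had a group per condition and zone, and its unit was a zone of a section. Zones cut from the same section were taken as independent, so zone p-values rest on more units than there are sections. A block for the section was an alternative for the comparisons with the cortex. With it, 45 values of the followed genes kept their call and 3 gained it. Ischemic changes within a zone were not fitted with that block. The study describes 2 mice per condition with 2 technical replicates each, so 2 sections of a condition may share a mouse, and p-values measure only the spread between sections, which may be technical. A spot took the zone with the highest standardised marker score over itself and up to 6 neighbours. The cortex list was Slc34a1, Slc22a8, Slc22a6, Slc12a3, Slc5a12 and Slc5a2, the outer stripe list Slc7a13, Cyp7b1, Serpina1f, Slc22a13 and Atp11a, the inner stripe list Slc12a1, Umod, Cldn10 and Ptger3, and the inner medulla list Slc14a2, Akr1b3, Cryab, Aqp2 and Fxyd4. Pelvis was the top 5% of spots for urothelial genes with at least 10 such counts.

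Shares of spots were thinned to 2000 UMIs, which left out 48 to 150 shallower spots per section. Likeness used Pearson's r over spots of at least 500 UMIs and genes of at least 100 counts in each section. The 8 genes, the lists and the tests were chosen with earlier results of these data known. Named genes were the 8, their 4 paralogs, and in each list up to 4 genes with the largest change past the threshold, plus the checks of injury and blood and the 10 genes of highest likeness. Genes named in the inner medulla for zone makeup were chosen after their values were seen. Alternatives were DESeq2 1.42.0, RLE factors, library size only, no filter, each section left out, a block, hemoglobin-rich spots left out, other zone scores and lists, and no thinning. With a section left out, the lone section of its condition was assumed to vary like the others. Fits were tested on simulated data.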

Additional observations from a re-analysis of the deposited data

Results flagged for a closer look

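For 9 gene and zone pairs, the ischemic change in a zone differed from the change in the cortex by the test of the difference in the zone model. In the outer stripe these were Atp6v1b1 (-0.97), Atp6v0d2 (1.77) and Atp6v0a4 (-0.96), all as differences of log2 changes, where 11.7% of all genes passed the same test in either direction. In the inner stripe they were Atp6v0d2 (1.55) and Slc4a9 (1.71), against 11.1% of all genes. In the inner medulla they were Atp6v0d2 (3.37), Atp6v1g3 (2.62), Slc4a9 (3.50) and Foxi1 (1.68), against 7.25% of all genes. With zones scored from each spot alone these inner medulla differences were 0.45 (adjusted p = 0.482), 0.049 (0.961), 0.49 (0.382) and -0.52 (0.333), so none of the 4 passed. Atp6v0d2 is in the list of all 3 zones.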

How the results depend on the processing

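The replicate block left 6 of the 8 genes past the threshold over whole sections, 7 for cortex, 6 for outer stripe, 5 for inner stripe and 4 for inner medulla. The 2 same-numbered pairs share only a number (correlation of deviations 0.219), so the block is not read as pairing. It brought Slc4a9 in the cortex past the threshold and took Slc26a4 in the inner medulla below it, and changed no other call of the 8; over all genes it gave 10089 calls over whole sections against 9279, and 6354, 8538, 7182 and 5243 of 14174 in the 4 zones in that order. In all, 922 values kept their call, 51 gained it, 58 lost it and 33 changed sign. The cause of these changes was not tested.

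Sign changes over whole sections were Atp6v0a4 with DESeq2 (-0.020) and RLE factors (-0.020), and for single sections left out, Atp6v0a4 (-0.043 to 0.081) and Slc4a9 (-0.082 to 0.34). Between zones and conditions, leaving out single sections gave -0.26 to 0.30 for Atp6v1g3 and -0.024 to 0.43 for Atp6v0a4 in the inner stripe, and -0.26 to 0.45 for Atp6v1g3 in the outer stripe. It gave -0.92 to 1.43 for Slc4a1 in normal inner medulla against cortex. For the change against the cortex it gave -0.28 to 0.23 for Atp6v0a4 in the inner stripe, and -0.23 to 0.0059 for Atp6v0a4 and -2.19 to 0.27 for Slc4a1 in the inner medulla. Atp6v0a4 in the inner stripe was 0.047 with library size only and 0.0064 with no filter.

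With each spot scored alone, the ischemic change was -0.10 for Atp6v1g3 in the inner stripe, and in the inner medulla -0.18 for Atp6v0d2, -0.77 for Atp6v1g3, -0.19 for Atp6v0a4, -0.0023 for Slc4a9 and -1.41 for Foxi1. Normal inner medulla against cortex was then 0.47 for Atp6v1b1, 0.58 for Atp6v0d2, 0.23 for Atp6v1g3, 0.076 for Slc26a4 and 0.42 for Foxi1. Of the 8, 3 were past the threshold, Atp6v1b1 among them, beside 3779 of all 14174 genes. The change against the cortex was 0.39 for Slc26a4 in the outer stripe, and -0.86 for Atp6v1b1 and -0.52 for Foxi1 in the inner medulla, where 1 of the 8 (Slc26a4) passed, beside 808 of all genes. Without Cryab, Aqp2 and Fxyd4 in the zone list, Atp6v0a4 in the inner medulla was -0.0026. With inner stripe and inner medulla joined, an alternative chosen after seeing the data, Foxi1 was -0.011 and the change of Atp6v1b1 against the cortex -0.11.

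The number of genes whose change differed from the cortex in the outer stripe was 3, but 1 with library size only, 5 with no filter and 0 to 5 with single sections left out. In the inner stripe it was 2, but 5 with no filter and 0 to 5 with sections left out, and in the inner medulla 4, but 2 to 5 with sections left out. Calls over all genes moved likewise: in the outer stripe from 1665 to 14 and 47 without an ischemic and to 2865 and 2960 without a normal section, 1110 with library size only and 2141 with no filter. In the inner stripe they went from 1576 to 186 and 194, or 1788 and 3013, and 1927 with no filter, and in the inner medulla from 1027 to 102 and 120, or 1385 and 2093. Without thinning, the ratio of ischemic to normal spot shares was 0.992 for Atp6v0a4, 1.21 for Atp6v1g3, 0.737 for Foxi1 and 0.477 for Slc26a4. Members with few counts, as Slc4a1 and Slc26a4 in ischemic medulla, are limited by depth.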
